A study of Mus musculus with 2 samples.

Results

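Hedgehog signalling was examined through 9 genes for its receptors, transducers and transcription factors: Ptch1, Cdon, Gas1, Hhip, Smo, Sufu, Gli1, Gli2 and Gli3. The genes were listed by name, and their peaks are all deposited Arid1b peaks that touched the gene or lay within 10 kb of it. By that rule 17 of the 8318 peaks belonged to these 9 of 21887 protein-coding genes. Arid1b is the large ARID subunit, alternative to Arid1a, of BAF-type SWI/SNF chromatin remodelling complexes. It was precipitated from chromatin of primary cells labelled dental mesenchyme, of wild-type C57BL/6 animals, taken from the apical end of the first lower molar at postnatal day 3.5 to 7.5 and grown in medium with 10% serum. An input library of the same kind of cells, without antibody, was the comparison. There was 1 library of each, so no value here has a replicate check, and the number of animals behind each library is not stated in the labels. The series' title and design text name Arid1a and Gli1-CreER;Arid1a fl/fl mice, whereas both libraries are labelled as wild-type cells and the antibody as Arid1b.

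Hedgehog ligands bind Ptch1 at the cell surface, helped by the coreceptors Cdon and Gas1, and so lift the block that Ptch1 places on Smo. Active Smo moves into the primary cilium and releases Gli2 and Gli3 from Sufu, so that full-length Gli proteins reach the nucleus in place of the Gli3 repressor. Gli1, Ptch1 and Hhip are themselves transcribed in response, Gli1 as an amplifier and the others as brakes. In the growing molar, Gli1 marks mesenchymal progenitors of the root, and epithelial Shh is the ligand.

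Of the 9 genes, 7 had an Arid1b peak inside or within 10 kb, against 31.7% of all protein-coding genes, and Gli1 and Hhip had none. Longer genes have more room for a peak. Among genes within 1.5 times the length of each member, the share ran from 29.2% (for Gas1) to 43.8% (for Cdon and Hhip). Start sites were taken from a RefSeq table that lists 1 start for each of 8 members and none for Gli1. A peak with any part within 1 kb of the listed start was present at 6 of these 8 genes, Ptch1, Gas1, Smo, Sufu, Gli2 and Gli3. The same was found at 23.9% of the 17492 protein-coding genes with a listed start, and at 21.8% of the 14731 with exactly 1. Cdon had its peaks at the outer 5′ end of the gene instead, 30548 bp before its listed start. Counting outer 5′ ends as starts too, 7 of the 8 with a listed start had a peak at a start, against 24.4% of the 17492 genes. The 9 genes were chosen for their pathway, with earlier results of these data known, so these counts describe the genes and are not a test.

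The sequence before 4 of the listed starts is shown because these starts differ in both CpG content and Arid1b signal. Each run holds the 250 bases before the start on the gene's own strand (RefSeq, GRCm38.p6, the assembly that mm10 names), with CpG dinucleotides in capitals. The Ptch1 run lies at chr13:63565736-63565985 (minus strand), the Gli3 run at chr13:15463473-15463722 (plus), the Hhip run at chr8:80058009-80058258 (minus) and the Cdon run at chr9:35451826-35452075 (plus).
Ptch1: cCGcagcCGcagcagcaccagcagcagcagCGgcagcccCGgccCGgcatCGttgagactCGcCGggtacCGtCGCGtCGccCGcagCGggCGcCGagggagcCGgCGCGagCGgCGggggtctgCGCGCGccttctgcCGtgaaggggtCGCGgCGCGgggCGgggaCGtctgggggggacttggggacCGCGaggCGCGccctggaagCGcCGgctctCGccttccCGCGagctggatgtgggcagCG
Gli3: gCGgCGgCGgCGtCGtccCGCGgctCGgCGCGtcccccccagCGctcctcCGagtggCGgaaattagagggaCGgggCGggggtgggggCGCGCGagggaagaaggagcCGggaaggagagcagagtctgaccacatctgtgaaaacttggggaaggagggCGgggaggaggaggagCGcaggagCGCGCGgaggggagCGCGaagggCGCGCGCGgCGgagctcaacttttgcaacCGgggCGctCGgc
Hhip: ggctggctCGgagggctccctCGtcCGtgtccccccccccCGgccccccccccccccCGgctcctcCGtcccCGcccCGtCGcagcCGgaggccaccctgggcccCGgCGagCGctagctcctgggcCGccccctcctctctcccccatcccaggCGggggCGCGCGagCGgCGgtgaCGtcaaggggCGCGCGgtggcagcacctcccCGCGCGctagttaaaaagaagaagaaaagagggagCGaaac
Cdon: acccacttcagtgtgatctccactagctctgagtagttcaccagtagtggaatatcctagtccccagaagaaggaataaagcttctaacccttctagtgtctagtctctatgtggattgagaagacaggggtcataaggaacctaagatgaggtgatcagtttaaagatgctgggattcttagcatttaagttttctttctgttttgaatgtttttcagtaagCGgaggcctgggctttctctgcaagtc

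The Ptch1 run held 41 CpGs and the Gli3 run 34, more than before 98.7% and 96.2% of the starts of genes with 1 listed start, and both starts were covered by an Arid1b peak. The Hhip run was also rich, with 28 CpGs (more than 91.5% of starts), yet no peak lay within 10 kb of that gene. The listed Cdon start had 1 CpG and no peak, its peaks being at the outer 5′ end. Between these extremes, Gli2 had 22 CpGs, Smo 15, Gas1 10 and Sufu 8, each with a start peak. Over all genes with 1 listed start, the median was 19 CpGs for the 3209 with a start peak and 6 for the 11522 without. Of starts with at least 15 CpGs, 43.1% of 5281 had a peak, against 20.8% of the 4135 with 5 to 14 and 1.35% of the 5315 with under 5. These shares do not fix the outcome at single genes: Sufu and Gas1 had a peak with fewer CpGs than Hhip, which had none. Most starts in the broad class with at least 15 CpGs lacked a peak, but that share differed within the class. In the bin of CpG counts that starts at 28 and holds Hhip, 143 starts had a peak and 132 did not.

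**Figure D1:**
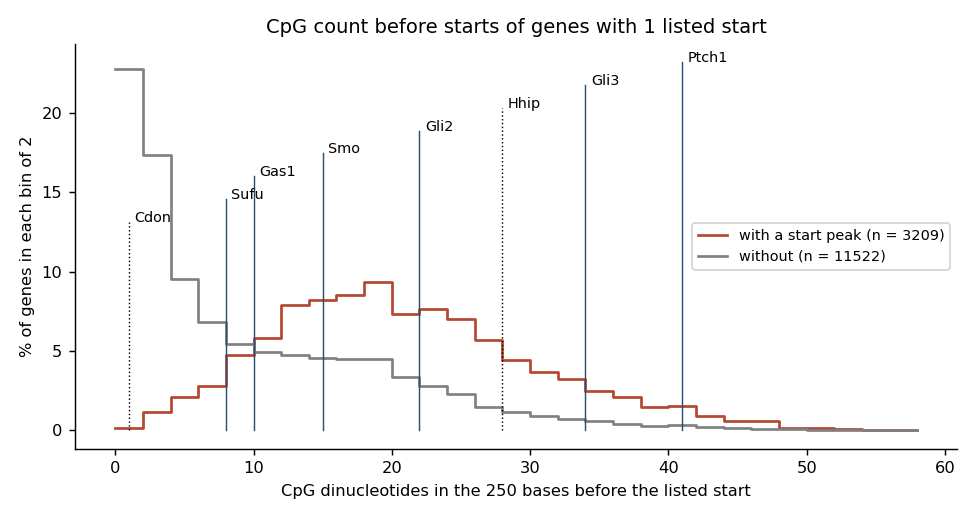
Number of CpG dinucleotides in the 250 bases before the start (x axis) against the percent of genes in each bin (y axis), for genes with 1 listed start that have (red) or lack (grey) an Arid1b peak within 1 kb. Vertical lines mark 8 members, solid with and dotted without a start peak: Hhip, at 28, is a CpG-rich start without a peak, and Cdon, at 1, a CpG-poor one.

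The same windows were searched on both strands for TGGGTGGTC, the site that Gli proteins bind, for the AP-1 site TGANTCA and for the GC box GGGCGG. No member's window held the Gli site, which 0.160% of 21263 windows held, or the AP-1 site, which 6.13% held. The GC box occurred in 42.6% of windows. Among the members it occurred in 6 of 8: Gli3 and Hhip had 2 matches each, Ptch1, Gli2, Gas1 and Sufu had 1 each, and Smo and Cdon had 0. These are matches of letters in one short window only. The window ends at the start, and the summits of the members' start peaks all lay downstream of it. The sequence at those summits was therefore not searched.

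Ptch1, the receptor, carried the most peaks as deposited. Its 5 peaks all lay inside the annotated gene (chr13:63508328-63573460), and all 5 summits were within 3 kb of the listed start at position 63565735, which is itself 7725 bp inside the outer 5′ end. The widest, chr13:63565050-63566125, spans 1076 bp and covers the start, with its summit 174 bp downstream and a fold over input of 3.85 (2.79 to 5.19). Here and below, the fold is the authors' value at the summit, and the range in brackets is an exact Poisson 95% interval that covers counting error of the ChIP fragments only. Further into the gene came chr13:63564485-63564863 (summit 1137 bp downstream, fold 3.51, 2.45 to 4.89) and chr13:63563904-63564236 (1725 bp, 2.98, 2.11 to 4.09). The strongest, chr13:63563154-63563558, lay 2374 bp downstream with a fold of 5.23 (3.97 to 6.76), and the last, chr13:63568155-63568354, lay upstream at -2550 bp with 4.13 (2.97 to 5.61). The 5 intervals share only the range from 3.97 to 4.09. Overlap of separate intervals is not a test of a difference, and the order of these peaks by strength was not tested. The Ptch1 peaks therefore surround an annotated start that lies inside the gene, and none was at the gene's outer ends.

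Such a run of peaks was uncommon in the list. Of the 14731 genes with 1 listed start, 24 (0.163%) had 5 or more summits within 3 kb of it, Ptch1 among them with Foxd1, Junb, Dusp6 and Spry2. The other genes named were picked after the list was seen. Among the 3082 protein-coding genes within 1.5 times the length of Ptch1, 1.1% had as many peaks in or within 10 kb. Peaks covered 2393 bp within 3 kb of the Ptch1 start, an amount reached at 43 of the 14731 genes (0.292%). The number of separate peaks depends on how intervals are split: when those closer than 500 bp were merged, Ptch1 had 2, as did Gas1, Smo, Gli2 and Gli3. Ptch1 also had 2 over peaks with a -log10 q of at least 10 or a fold of at least 4, and so did Smo. In each of these Smo counts, 1 of the 2 was a peak outside Smo, at the start of its neighbour Ahcyl2. The covered length within 3 kb was 1365 bp at Gli3 (reached at 1.23% of genes), 673 bp at Gas1 (4.93%), 535 bp at Smo (7.2%), 332 bp at Sufu and 329 bp at Gli2.

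**Figure D2:**
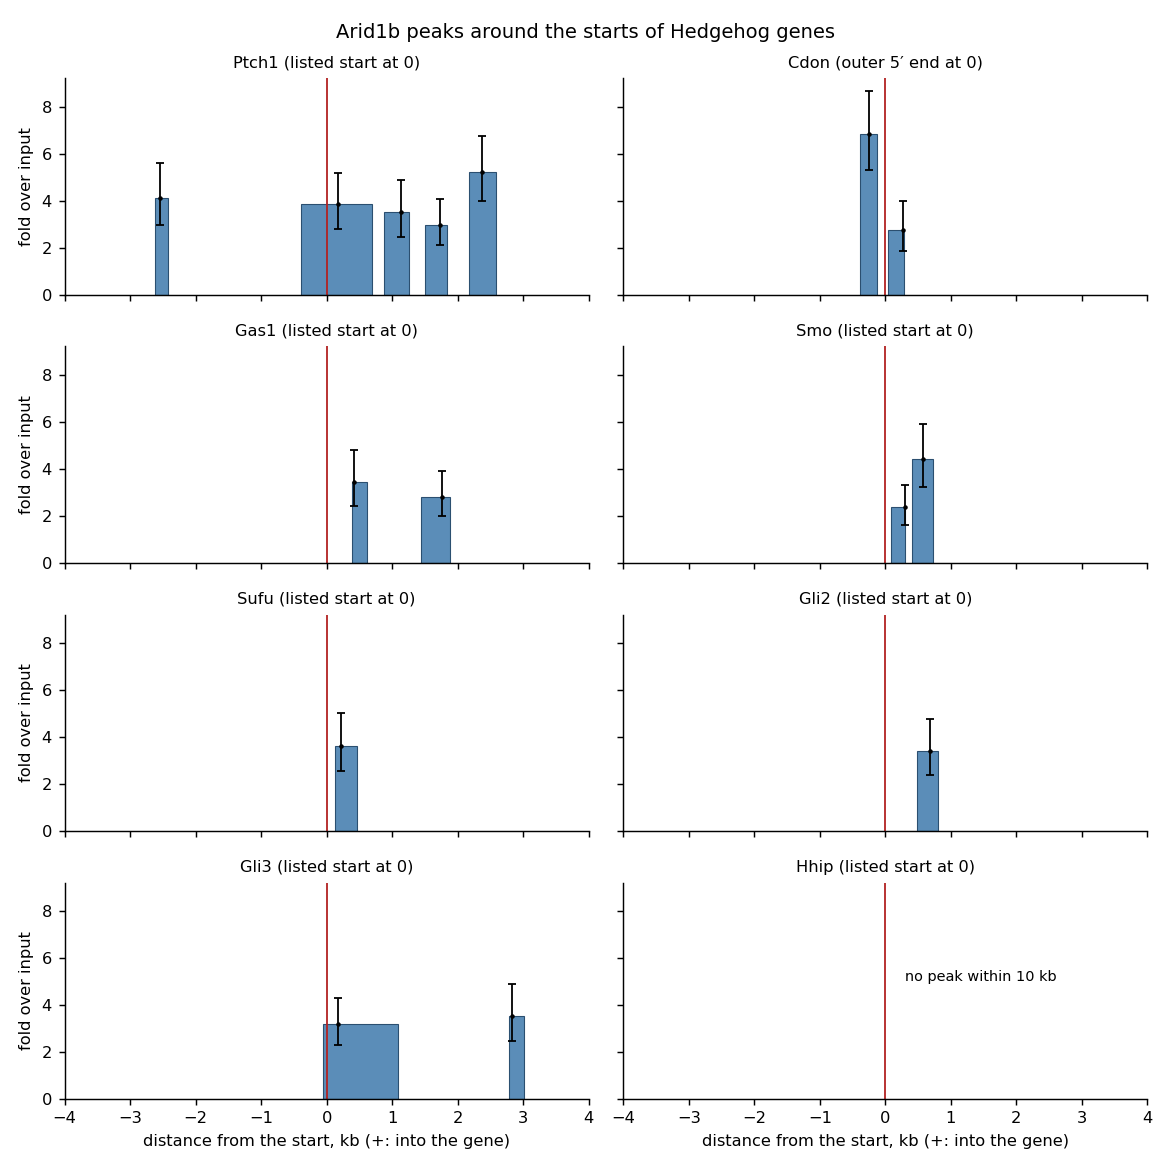
Arid1b peaks within 4 kb of the start of 8 genes: x axis, distance from the listed start in kb, positive into the gene (for Cdon, from the outer 5′ end), y axis, the authors' fold over input. Bars span the peaks, dots are summits and error bars 95% Poisson intervals: Ptch1 has 5 peaks on both sides of its start, the Cdon peaks flank the outer end, and Hhip has none.

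The coreceptor gene Cdon (chr9:35421528-35507652) had the strongest peak of the 9 genes. It lay at chr9:35421140-35421399, 129 bp outside the gene, with its summit 245 bp upstream of the outer 5′ end (-245 bp) and a fold of 6.82 (5.28 to 8.66), higher than 98.0% of all peaks. A weaker peak lay just inside, chr9:35421574-35421819, with its summit at 267 bp and a fold of 2.76 (1.85 to 3.97), higher than 5.33% of all peaks. These intervals do not overlap, so counting error alone does not span the difference between the upstream and downstream peak. Behind the upstream peak were 65 fragments against an expected 8.68, and behind the downstream one 27 against 9.15. Gas1, the other coreceptor and a short gene of 3131 bp (chr13:60174405-60177535), had 2 peaks inside: chr13:60176925-60177151, 416 bp from the start, with 3.45 (2.42 to 4.78), and chr13:60175648-60176093, 1766 bp from it, with 2.82 (1.97 to 3.90). The Gas1 folds did not differ beyond counting error.

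Hhip, which encodes a membrane protein that binds and sequesters the ligands, had no peak. The nearest to the gene (chr8:79965850-80058060) was chr8:79680735-79680951, 284899 bp away, with a fold of 3.51 (2.45 to 4.89). Of 21631 protein-coding genes on chromosomes with peaks, 22.1% lay farther from their nearest peak. The surroundings held few peaks and few genes: within 500 kb of the start there were 2 peaks and 6 protein-coding genes. Among genes of like length, 43.8% had a peak in or within 10 kb. A missing peak says only that no signal passed the authors' threshold, and the lowest -log10 q in the list was 2.27.

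Smo, the transducer that Ptch1 holds in check, had a pair of peaks just inside its start (chr6:29735497-29761366). The nearer, chr6:29735586-29735802, had its summit at 302 bp and the lowest fold of the 17, 2.35 (1.61 to 3.32). The second, chr6:29735911-29736228, had its summit at 581 bp and a fold of 4.40 (3.21 to 5.90). The local input level was higher under the nearer summit, at 12.2 expected fragments against 8.99 under the second, while the ChIP pileups were 30 and 43. Another peak, chr6:29768558-29768783 (4.65, 3.40 to 6.20), lay 7192 bp beyond the far end of Smo. Its summit was 260 bp downstream of the start of the neighbour Ahcyl2, so it was counted for Smo by distance alone.

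Sufu, which holds Gli proteins in the cytoplasm, had 1 peak, at chr19:46397027-46397358. Its summit lay 216 bp inside the start of the gene (chr19:46396896-46488804), with a fold of 3.61 (2.53 to 5.01), 34 fragments and local input at the genome background. It was 1286 bp from the nearer boundary of the neighbouring gene Actr1a (chr19:46376813-46395741). Just outside the 10 kb limit, 6 more peaks lay 11438 to 15093 bp beyond the far end of Sufu, around the neighbouring gene Trim8, the strongest with 5.50 (4.21 to 7.07). The Smo peak at Ahcyl2, 7192 bp away, was the farthest peak inside the limit.

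The 3 Gli genes, which encode the zinc-finger factors at the end of the pathway, differed in where peaks lay. Gli3, the main source of repressor, had a wide peak of 1144 bp across its start, chr13:15463671-15464814, with its summit at 172 bp and a fold of 3.18 (2.31 to 4.29). This peak also overlaps the lncRNA gene Gm6556 (chr13:15459980-15464618), so it cannot be given to Gli3 alone. A second Gli3 peak lay at chr13:15466503-15466730, 2837 bp into the gene of 266304 bp, with 3.51 (2.45 to 4.89). Gli3 was the only protein-coding gene within 500 kb of its start, and its 2 peaks were the only peaks there.

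Gli2, the main activator, had a peak at chr1:119052814-119053142, with its summit 675 bp downstream of the listed start and a fold of 3.41 (2.36 to 4.77). The listed start is 786 bp inside the outer 5′ end, and measured from that end the summit lay at 1461 bp. The second Gli2 peak, chr1:119033789-119034072, was 19718 bp into the gene and away from the listed start, with 3.48 (2.48 to 4.77). The Gli2 folds were alike within counting error.

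Gli1 (chr10:127329882-127341579), the target gene that marks root progenitors, had no peak inside or within 10 kb. The nearest, chr10:127290837-127291137, lay 38745 bp away with a fold of 4.32 (3.14 to 5.81), and its summit was 170 bp downstream of the start of Ddit3. A further 2 peaks lay 40267 and 40836 bp from Gli1. Of the 21631 genes, 54.7% lay farther from their nearest peak than Gli1 did. Unlike Hhip, Gli1 sits in a dense region, with 22 peaks and 42 protein-coding genes within 500 kb of its middle. Among genes of like length, 32.0% had a peak in or within 10 kb.

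At the 6 genes with a start peak, the summit nearest to the start always lay downstream of it, at 172 bp in Gli3, 174 bp in Ptch1, 216 bp in Sufu, 302 bp in Smo, 416 bp in Gas1 and 675 bp in Gli2. Of the 3209 genes with 1 listed start and a start peak, 74.0% had their nearest summit downstream, with a median of 186 bp and quartiles of -35 and 284 bp. The members were on the common side, and Smo, Gas1 and Gli2 lay beyond the upper quartile. Of these 6 members, Ptch1, Gas1, Smo and Gli3 had 2 or more summits within 3 kb of the start. Over all 14731 genes with 1 listed start the share was 5.49%, but 11522 of those genes had no start peak. The share among genes with a start peak was not computed, so the 2 figures are not on a like footing.

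**Figure D3:**
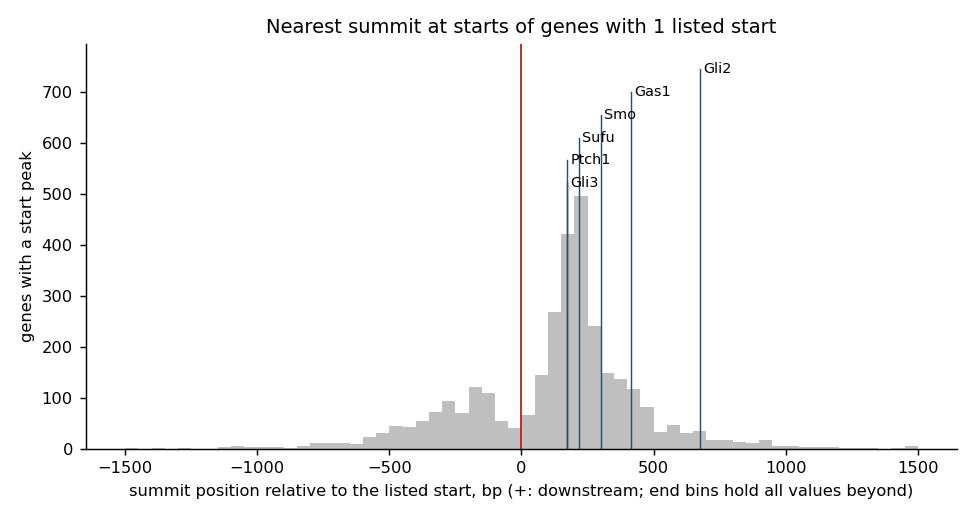
Position of the nearest summit relative to the listed start in bp (x axis, positive downstream) for the 3209 genes with 1 listed start and a start peak (grey, count per 50 bp on the y axis). Vertical lines mark the 6 members, all downstream of the start.

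Across the 17 peaks, the fold ranged from 2.35 to 6.82 with a median of 3.51, against a median of 3.72 (quartiles 3.30 and 4.32) over all 8318 peaks. The median of the list lay inside the intervals of 14 of the 17. The exceptions were the strongest peaks of Cdon and Ptch1 above it and the nearer Smo peak below it. By the strongest peak of each gene, the order was Cdon 6.82, Ptch1 5.23, Smo 4.65 (or 4.40 without the peak at Ahcyl2), Sufu 3.61, Gli3 3.51, Gli2 3.48 and Gas1 3.45. Neighbours in this order had overlapping intervals throughout. The interval of Cdon, which starts at 5.28, lay above those of Sufu, Gli3, Gli2 and Gas1, the highest of which ends at 5.01.

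**Figure D4:**
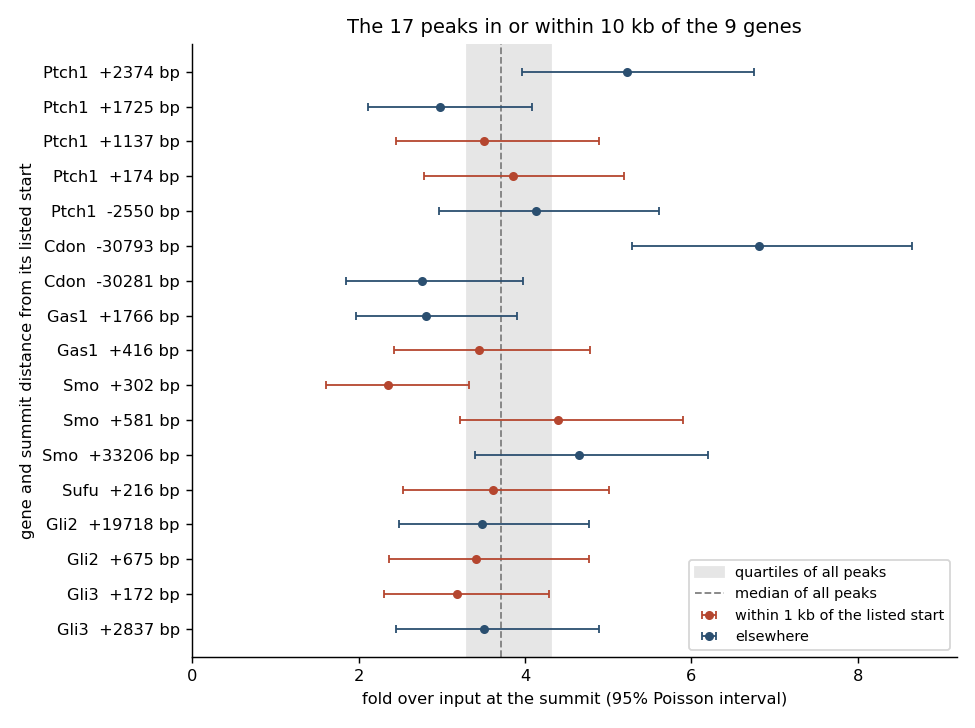
Fold over input (x axis) with its 95% Poisson interval for each of the 17 peaks, labelled by gene and by the distance of the summit from the listed start. Red points lie within 1 kb of the listed start; the grey band and dashed line are the quartiles and median of all peaks. Most intervals include the median, and the upstream Cdon peak lies farthest above it.

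The depth behind these values was small. Summit pileups of the 17 ran from 27 to 65 fragments with a median of 36, against 38 for all peaks, and their -log10 q from 2.52 to 29.4. The expected level under the summit was the genome background of 8.68 in 7 of the 17 and a higher local input level in the other 10, compared with 47.2% of all peaks at the background. Both the Gli3 start peak and the nearer Smo peak had the highest expected level of the members, 12.2. The Gli3 and Ptch1 start peaks had the same pileup of 41, and their folds of 3.18 and 3.85 differ only through the input level, 12.2 against 9.91. The part of local input in these folds was not tested.

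Beyond the 9 genes, 47 other Hedgehog genes were grouped by role, and 28 had a peak inside or within 10 kb, against 31.7% of all protein-coding genes. Ligand genes and those for ligand processing and release had a peak in 2 of 9, too few genes to set apart from that share. They were Dhh (4.33, 3.36 to 5.49) and Hhat (3.92, 2.79 to 5.37), in both cases with the peak outside the gene, by 9179 and 7884 bp. None of the 7 with a listed start had a start peak, which 23.9% of all protein-coding genes with a listed start had, and the nearest peak to Shh lay 288058 bp away. Other receptors and membrane proteins had a peak inside or within 10 kb in 3 of 10, near the 31.7% of all protein-coding genes. Among them only Mgrn1, for a ubiquitin ligase that lowers Smo, had start peaks. It had 2, the stronger with a fold of 4.84 (3.57 to 6.42). The coreceptor gene Boc lay 165803 bp from a peak, unlike Cdon and Gas1.

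Cytoplasmic and ciliary regulators of Gli proteins had a peak inside or within 10 kb in 13 of 16, against 31.7% of all protein-coding genes. Of the 13 with a listed start, 9 had a start peak, against the same 23.9%. The strongest of these were Prkaca, the catalytic subunit of the kinase that primes Gli proteins for processing (5.16, 3.85 to 6.79), Ulk3 (4.52, 3.30 to 6.05), and Gsk3b and Spop (4.13, 2.97 to 5.61, for each). Kif7, the ciliary kinesin of the pathway, Ift172 and Kif3a had no peak within 10 kb. Genes often described as targets had a peak inside or within 10 kb in 10 of 12, again beside 31.7%. Of the 8 with a listed start, 5 had a start peak, again beside 23.9%: Foxd1 (5.37, 4.02 to 7.03), Foxf2 (3.74, 2.82 to 4.86), Hand2 (3.72, 2.62 to 5.13), Snai1 (3.38, 2.45 to 4.55) and Bcl2 (2.33, 1.64 to 3.21). The D-type cyclin genes Ccnd1 and Ccnd2 had peaks inside the gene, with highest folds of 3.26 and 3.92, whereas the nearest peak to Mycn lay 1669460 bp away. Peaks counted from outside the gene also occurred in the other roles, as at Foxl1 (8357 bp away), Arl13b (7086 bp) and Iqce (2093 bp). Differences between roles were not tested. CpG counts before the starts of these pathway genes were not examined. Over all genes with 1 listed start, the share with a start peak ran from 1.35% to 43.1% by CpG class.

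**Figure D5:**
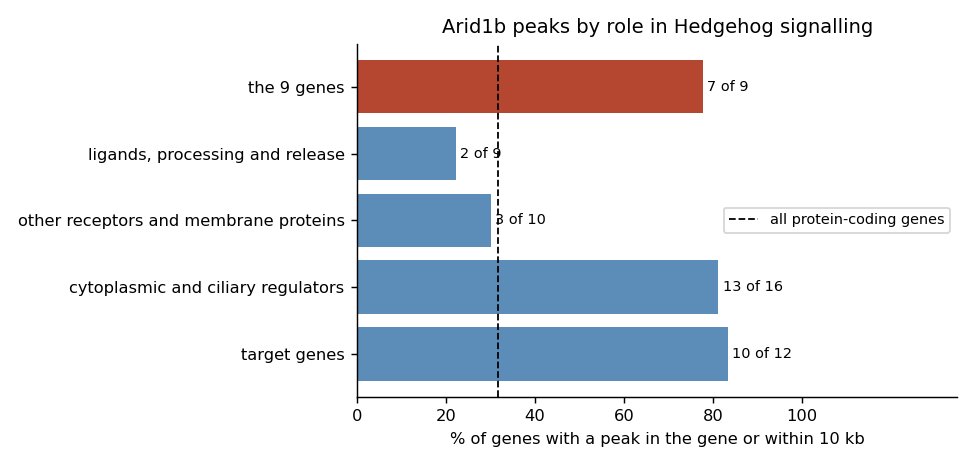
Percent of genes with an Arid1b peak inside or within 10 kb (x axis) for the 9 genes and 4 groups of other Hedgehog genes, with the number of genes beside each bar. The dashed line is the value for all protein-coding genes, 31.7%: regulators (13 of 16) and target genes (10 of 12) lie above it. Ligand genes (2 of 9) and other receptors and membrane proteins (3 of 10) are too few to set apart from it.

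The labelled cell type was set against marker genes by the same rule, and 9 of 10 markers of dental mesenchyme had a start peak, against 23.9% of all protein-coding genes with a listed start. Of markers with a listed start, 0 of 3 of dental epithelium, 0 of 2 of endothelium and 0 of 3 of blood and immune cells had one, numbers too small to set against that share. Within 10 kb, a peak was present at 9 of 10 mesenchyme, 1 of 6 epithelial, 0 of 4 endothelial and 1 of 4 blood and immune markers, against 31.7% of all protein-coding genes. A peak is not a measure of expression, so this does not give the makeup of the culture. CpG counts before the marker starts were not examined either.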

How the data were processed

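Arid1b ChIP and input chromatin were sequenced, 1 library each. FastQC 0.11.8, Bowtie2 2.2.5, Picard, MACS2 2.1.1 and mm10 are named, without roles, per the submitters' processing notes; filters and duplicate handling are not stated there. The deposited narrow peak list holds, for each peak, a fold enrichment (a linear ratio), -log10 p-values and q-values, a score (not used) and the summit offset, all the authors' values for the ChIP over the input.

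Pileup and expected level were solved from the deposited fold and -log10 p, assuming fold = (pileup + 1) / (expected + 1) and a Poisson p. Whole pileups solved 100% of peaks within 0.001. Genes came from a RefSeq table and starts from a RefSeq promoter table, both GRCm38.p6 and the latter covering 17492 of 21887 protein-coding genes. Coordinates are 1-based. No test was made, since each group had 1 library. Python 3.11.15, scipy 1.17.1 and pandas 2.3.3 were used, and the scripts were tested on simulated data.

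The 9 genes, the other lists and the rule for named genes were chosen with earlier results of these data known. All 9 were named with every peak, and other pathway genes by a start peak (the 4 strongest where a role had over 6). Pathway genes named without one, and neighbouring genes, were picked with their values in view. One gene of the pathway list is not reported here and was left out of its counts. Alternatives covered stricter peaks, other windows and merged intervals.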

Additional observations from a re-analysis of the deposited data

How the results depend on the processing

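The weaker peaks decide most counts. With -log10 q of at least 10, 3 of the 9 genes kept a peak within 10 kb, 1 (Smo) kept a start peak, and 5 peaks and 13 of the 47 other pathway genes remained. A fold of at least 4 gave the same counts, 3, 1, 5 and 13. Over peaks with local input at the genome background, 3 genes had a start peak (Ptch1, Sufu and Gli2) and there were 7 peaks. A window of 50 kb gave 27 peaks, 6 of those added being the ones near Trim8. Other settings left these 4 counts within 1.5 times. With outer gene boundaries in place of listed starts, 5 genes had a start peak, losing Ptch1 and Gli2 and gaining Cdon; with outer 5′ ends added, a choice made after seeing the data, there were 7. Merging intervals closer than 500 bp left 12 peaks. Of 72 counts for single genes under these settings, 47 stayed within 1.5 times. Without the added 1, the strongest fold of each gene (3.72 to 7.49) stayed inside its interval in 7 of 7. Those intervals come from the same pileup and expected level, so this outcome was nearly fixed beforehand and is no independent check. No paired analysis was possible because each group had 1 library. Pileups of 27 to 65 fragments limit every fold here.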
